A study of Mus musculus with 12 samples.

Results

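Actin filaments and microtubules are each built from a protein that several genes encode, and the products of those genes, the isotypes, are nearly identical. The 10 isotype genes described here are named by a rule that uses no measured value, though they were picked with earlier results of these data known, out of 41743 gene identifiers in the deposited tables. They are the cytoplasmic actins Actb and Actg1, the alpha-tubulins Tuba1a, Tuba1b, Tuba1c and Tuba8, and the beta-tubulins Tubb2a, Tubb2b, Tubb4b and Tubb6, and both tables held a row for each of the 10.

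RNA of whole frozen liver was measured in 12 female mice aged 3 to 4 months, 3 in each of 4 groups. YAP KO mice carried Foxa3-Cre and floxed Yap1, which removes Yap1 (the gene of the coactivator YAP) from the foregut endoderm and so from hepatocytes and biliary cells but not from the other cells of the liver, and in addition carried a ROSA-stop fl/fl-EYFP reporter, all on C57BL/6. Their controls were WT (C57BL/6) littermates. YAP KO TAZ HET mice carried Foxa3-Cre, lacked both copies of Yap1 and 1 copy of Wwtr1 (the gene of TAZ, the paralog of YAP) in the same cells, and were of a mixed C57BL/6 and FVB background, as were their controls, the WT (mixed) littermates. The Cre status of the WT littermates is not given in the labels. Each comparison answers how the livers of a model differed from those of its own littermates. Between the models, strain, TAZ copy number, the reporter and the stock of floxed Yap1 mice cannot be told apart. The Yap1 RNA that remained also differed between the models, as given below.

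Actin monomers polymerize into filaments that carry cell shape, adhesion and contraction, and free monomers hold back the coactivators MRTF-A and MRTF-B of the transcription factor SRF, which drives many actin genes. Microtubules assemble from dimers of 1 alpha- and 1 beta-tubulin, and cells destabilize tubulin mRNA when free dimers are in excess. Actb and Actg1 are expressed by practically every cell type of the liver, and tubulin isotypes differ in the tissues that use them most.

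The isotypes resemble each other closely enough to matter for counting, so stretches of their coding sequence are shown first (GENCODE M21, GRCm38). The first 60 bases of the actins hold the region in which these proteins differ most, and capitals mark the 9 bases of Actg1 that differ from Actb. Over the whole coding sequence of 1128 bases, 128 bases differed, an identity of 88.7%.
Actb: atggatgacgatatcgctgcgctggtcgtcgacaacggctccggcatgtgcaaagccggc
Actg1: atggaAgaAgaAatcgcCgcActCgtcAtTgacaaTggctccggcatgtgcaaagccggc

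The last 60 bases of the tubulins encode the acidic tail in which isotypes differ most and to which motors and other proteins bind, and they are shown for 5 of them. Capitals mark bases that differ from the first gene of each set, with the stop codon included. Tubb2b differed from Tubb2a at 3 of the 60 bases and Tubb4b at 17, and Tuba8 differed from Tuba1c at 15.
Tubb2a: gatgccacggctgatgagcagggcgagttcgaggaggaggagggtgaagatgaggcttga
Tubb2b: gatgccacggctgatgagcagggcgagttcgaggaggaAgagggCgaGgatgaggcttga
Tubb4b: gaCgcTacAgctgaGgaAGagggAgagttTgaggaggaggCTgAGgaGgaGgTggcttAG
Tuba1c: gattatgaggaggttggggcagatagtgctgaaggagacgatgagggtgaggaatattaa
Tuba8: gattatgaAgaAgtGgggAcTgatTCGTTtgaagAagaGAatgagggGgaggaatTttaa

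The identity of the coding sequence was 98.3% between Tuba1a and Tuba1b, 97.1% between Tuba1a and Tuba1c, 97.9% between Tuba1b and Tuba1c, and 78.8% to 79.9% between Tuba8 and the other alpha-tubulins. Among the beta-tubulins it was 96.5% between Tubb2a and Tubb2b, 83.6% between Tubb2a and Tubb4b and 80.7% between Tubb4b and Tubb6. Stretches of 150 bases, the length of 1 sequenced read, were compared with the annotated transcripts of all other genes. In Tuba1a 54.7% of such stretches were found unchanged in another gene, in Tuba1b 57.9% and in Tuba1c 46.7%, so the division of reads among these 3 genes is uncertain. The share was 43.5% in Actg1, mostly with the processed pseudogene Gm12715, 27.9% in Tubb2a and 20.1% in Tubb2b, which share 408 such stretches, and 16.8% in Tubb4b. Tuba8 shared 10.5% with the antisense gene Gm15856, which is listed at 0 TPM in all 12 livers. No stretch of Actb or Tubb6 was shared. How the authors' counting treated shared reads is not given in the sources used here.

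Several of the genes are neighbours in the genome (GRCm38, 1-based). Tuba1b (ENSMUSG00000023004, chr15:98931425-98934565, minus strand), Tuba1a (ENSMUSG00000072235, chr15:98949837-98953703, minus strand) and Tuba1c (ENSMUSG00000043091, chr15:99029891-99038110, plus strand) lie in 1 cluster with 15271 and 76187 bases between them, and each has 4 exons. Tubb2a (ENSMUSG00000058672, chr13:34074274-34078007, minus strand) and Tubb2b (ENSMUSG00000045136, chr13:34126748-34130466, minus strand) lie 48740 bases apart, also with 4 exons each. Actb (ENSMUSG00000029580, chr5:142903115-142906754, minus strand) and Actg1 (ENSMUSG00000062825, chr11:120345690-120348542, minus strand) have 6 exons each. Tuba8 (ENSMUSG00000030137, chr6:121210696-121226854, plus strand) has 5 exons, and Tubb4b (ENSMUSG00000036752, chr2:25222160-25224702, minus strand) and Tubb6 (ENSMUSG00000001473) have 4.

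Promoters of 300 bases, from 250 before to 50 after the start site, were held by RefSeq (GRCm38.p6) for 7 of the 10 genes, that is Actg1, Tuba1a, Tuba1b, Tuba1c, Tuba8, Tubb2a and Tubb4b. They were searched on both strands for the CArG box (the binding motif of SRF), CATTCC (TEAD, the partner of YAP and TAZ), TGANTCA (AP-1), TATAAA and CCAAT. The CArG box occurred in 1.63% of all 32851 promoters and, among these 7, in Actg1. CATTCC (14.7% of all promoters) and TGANTCA (7.81%) were in none of the 7, TATAAA (13.6%) was in Tubb2a and Tubb4b, and CCAAT (37.4%) was in Actg1, Tuba1a, Tuba1c and Tubb4b. The promoter stretches that hold these matches are shown for Actg1 and for Tubb2a and Tubb4b, the tested beta-tubulins with the largest and smallest change. The whole stretches span chr11:120348543-120348625 for Actg1, chr13:34078009-34078098 for Tubb2a and chr2:25224703-25224832 for Tubb4b, all on the minus strand. Capitals mark the CArG box of Actg1 at -90 to -81 from the start site, TATAAA of Tubb2a at -29 to -24 and 3 of the 5 CCAAT matches of Tubb4b. The TATAAA match of Tubb4b lay after its start site, at 18 to 23. A match in these letters is a description of the sequence and not a shown binding site.
Actg1: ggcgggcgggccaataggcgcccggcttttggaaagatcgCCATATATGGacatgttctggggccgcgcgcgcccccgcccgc
Tubb2a: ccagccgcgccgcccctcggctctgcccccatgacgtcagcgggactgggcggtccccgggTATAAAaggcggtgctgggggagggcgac
Tubb4b: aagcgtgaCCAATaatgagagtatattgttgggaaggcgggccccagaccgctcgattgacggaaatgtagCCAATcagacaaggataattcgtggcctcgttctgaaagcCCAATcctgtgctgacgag

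The values are TPM, the authors' count of transcripts corrected for gene length and set to a total of 1000000 in each library, so levels of different genes can be compared within a liver. The reads behind a value are unknown. Between 14442 and 15047 genes were above 0 in a liver. Yap1 stood at 28.2 to 30.5 TPM in WT (C57BL/6) livers against 1.67 to 3.72 in YAP KO livers, and at 31 to 33.2 in WT (mixed) livers against 8.63 to 11.5 in YAP KO TAZ HET livers. Wwtr1 was above WT in both models, at 11.5 to 14.1 TPM with 1 copy deleted (YAP KO TAZ HET) against 7.73 to 8.38 in littermate livers, and at 13.3 to 16.7 in YAP KO livers against 6.26 to 6.83, so its gene total does not show the loss of 1 copy. Alb, the albumin gene that defines hepatocytes, ran from 51588 to 83138 TPM over the 12 livers, so all were liver by this marker. Krt19, a marker of bile duct cells, ran from 0.216 to 6.39 TPM over the 12 livers. Its range in each model overlapped that of the littermates.

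For tests, each library was first scaled by a factor that sets the bulk of genes level (0.857 to 0.947 in WT livers and 1.07 to 1.23 in the livers of the models), 1 was added and log2 taken. Log2 fold changes below are on this scale, which understates changes of low genes, and come with limma's standard error (SE) and Benjamini-Hochberg adjusted p over all tested genes. A gene was tested where 3 or more libraries of the comparison reached 1 TPM, a filter that 9 of the 10 isotypes passed in every comparison. Tubb2b did not. Without the scaling, the median log2 fold change of all genes would be 0.28 in place of -0.04 for YAP KO and 0.24 in place of -0.04 for the other model, so changes are relative to the bulk of the genes. The 3 livers of a group are separate mice.

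Of the tested isotypes, Tubb2a and Tuba8 had the highest log2 fold changes in both models. Next came Actg1, Tubb6, Tuba1a and Actb in YAP KO livers and Tubb6, Tuba1a, Actb and Actg1 in YAP KO TAZ HET livers. Among the broadly expressed tubulins the calls differed, though no test compared these genes with each other. Tuba1c and Tubb4b did not pass the test in either model, whereas Tuba1b passed in YAP KO livers only (0.64, limma adjusted p = 0.0143). Tubb5, a broadly expressed beta-tubulin outside the 10, passed as higher in both models. In YAP KO livers 7 of the 9 tested isotypes were higher and 0 lower, where 36.7% of the 11704 tested genes passed in either direction and 18.8% were higher. In YAP KO TAZ HET livers 6 of 9 were higher and 0 lower, where 38.2% of 11741 genes passed and 19.2% were higher. The median log2 fold change of the 9 was 1.26 and 0.71, beside -0.04 for all tested genes in each comparison. In TPM as deposited, the livers of YAP KO mice lay above those of their littermates without overlap for 9 of the 10 isotypes (all but Tuba1c), as they did for 47.5% of tested genes, and YAP KO TAZ HET livers for 8 of 10 (all but Tuba1c and Tubb2b) against 44.4%. After scaling, Tubb4b also overlapped in both comparisons, and Tuba1b in that of YAP KO TAZ HET livers. Tubb2b, counted among the 10, was not among the tested genes. In TPM as deposited, the sum of all 10 isotypes was 671 to 863 in WT (C57BL/6) against 1757 to 2940 in YAP KO livers. It was 643 to 931 in WT (mixed) against 1481 to 1759 in YAP KO TAZ HET livers.

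**Figure D1:**
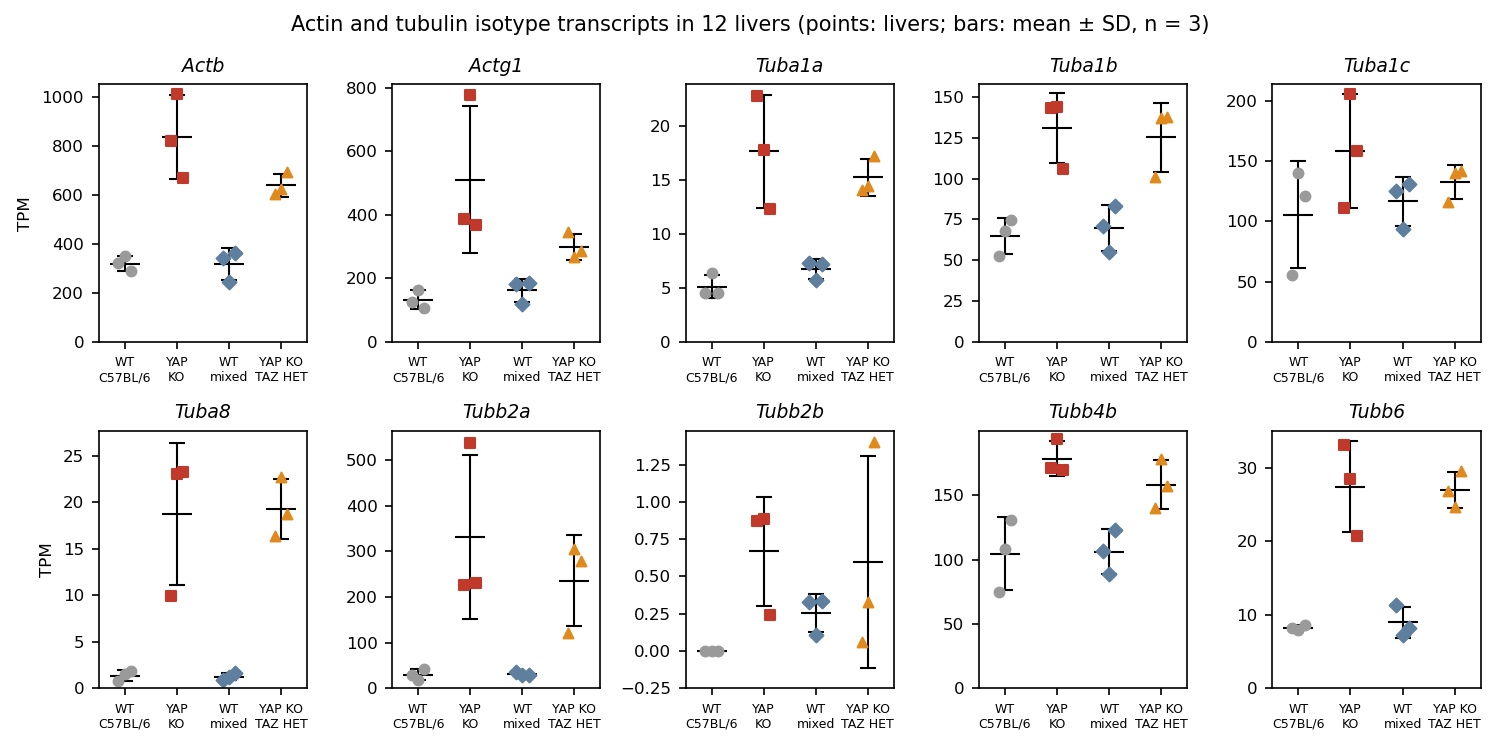
TPM of the 10 isotypes in each of 12 livers, 1 panel per gene with its own linear axis, by group, where points are livers and bars are the mean ± SD (n = 3). Tubb2a, Tuba8 and Tubb6 are clearly apart between each model and its WT littermates, whereas the points of Tuba1c overlap in both comparisons.

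In whole liver, a different number of cells of a type and a different amount of RNA per cell cannot be told apart, and the markers of several cell types moved with the isotypes. All 9 macrophage markers passed as higher in both models, and none of them was at 0 in all livers of a group. Their summed levels were 292 to 362 TPM in WT (C57BL/6), 877 to 1335 in YAP KO, 255 to 564 in WT (mixed) and 1150 to 1319 in YAP KO TAZ HET livers. Of the 9 stellate and myofibroblast markers, 6 were higher and 1 lower in YAP KO and 5 higher in YAP KO TAZ HET livers, and their sum was 32.6 to 54.7, 246 to 324, 29.4 to 57.5 and 146 to 203 TPM in the same order of groups. Acta2, the smooth muscle actin of activated stellate cells, stayed between 0.877 and 10 TPM in all livers and did not pass in either model (0.42, SE 0.42, limma adjusted p = 0.47, and -0.85, SE 0.45, limma adjusted p = 0.168).

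Of 8 tested dividing cell markers, 6 and 8 were higher, with sums of 5.41 to 8.82 TPM in WT (C57BL/6), 21.5 to 47 in YAP KO, 4.93 to 8.21 in WT (mixed) and 24.5 to 29.2 in YAP KO TAZ HET livers. Of 5 tested biliary markers, 2 were higher in each model, Spp1 and Sox9, and 1 was lower in YAP KO TAZ HET livers, with sums of 37 to 64.8, 336 to 759, 50.7 to 69.5 and 110 to 231 TPM. Of 8 hepatocyte markers, 4 and 3 were lower and 0 higher, with sums of 110382 to 121996, 79945 to 90613, 101026 to 123543 and 77979 to 94032 TPM. Among 7 endothelial markers 1 was higher and 2 lower in YAP KO, and 2 higher and 2 lower in YAP KO TAZ HET livers, with sums of 78.7 to 86.6, 77 to 115, 103 to 108 and 94.5 to 129 TPM. Of the lymphocyte and neutrophil markers 3 were higher in each model, with sums of 17.6 to 21.8, 57.2 to 65.7, 11.5 to 15.2 and 24.9 to 60.7 TPM and Ly6g at 0 in every liver outside the YAP KO group. The part of these cell types in the changes of the isotypes was not tested. Actb, Actg1 and Tubb6 are also expressed by macrophages and stellate cells.

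Among the actins, Actb encodes beta-actin, the main cytoplasmic actin, and had the highest mean level of the 10 in all 4 groups. Actb was at 320, 349 and 288 TPM in WT (C57BL/6) livers and at 821, 1011 and 669 in YAP KO livers. WT (mixed) livers held 343, 242 and 364 TPM, against 602, 623 and 691 in YAP KO TAZ HET livers. The groups did not overlap in either set, and the means were 319 ± 30.3 (SD, n = 3) against 834 ± 172 TPM, and 316 ± 65.1 against 638 ± 46.5. The log2 fold change was 1.01 (SE 0.17, limma adjusted p = 0.00251) in YAP KO and 0.71 (SE 0.17, limma adjusted p = 0.0127) in YAP KO TAZ HET livers. Leaving out YAP KO TAZ HET replicate LM251 took the latter to 0.62 (limma adjusted p = 0.0556) and ended the call.

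Actg1 encodes gamma-actin, the other cytoplasmic actin. Its TPM was 126, 164 and 105 in WT (C57BL/6) and 388, 776 and 367 in YAP KO livers, of which replicate LM189 stood far above the other two. In the mixed set the WT livers held 182, 119 and 184 TPM and the YAP KO TAZ HET livers 344, 267 and 286. Each model lay above its littermates without overlap, with a log2 fold change of 1.52 (SE 0.31, limma adjusted p = 0.00621) in YAP KO and 0.58 (SE 0.17, limma adjusted p = 0.0299) in YAP KO TAZ HET livers. The second call was not firm, with 0.38 (limma adjusted p = 0.0669) without WT (mixed) replicate LM227, and 0.51, 0.64 and 0.57 without YAP KO TAZ HET replicates LM225, LM250 and LM251, none of which passed. In the fit of all 12 livers it was 0.57 (limma adjusted p = 0.12).

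The following sums are of TPM as deposited. Scaling would make their rises smaller, as its factors were higher in the models than in WT livers. The summed TPM of both actins was 451 ± 59.8 in WT (C57BL/6) and 1344 ± 393 in YAP KO livers, 2.98 times as much. It was 478 ± 102 in WT (mixed) and 937 ± 43.8 in YAP KO TAZ HET livers, 1.96 times as much. Actb held 71 ± 2.68% of this sum in WT (C57BL/6) livers and 63 ± 5.82% in YAP KO livers, and 66.2 ± 0.833% and 68.1 ± 3.89% in the mixed set. The ratio of Actb to Actg1 was 2.53, 2.12 and 2.73 in WT (C57BL/6) and 2.12, 1.3 and 1.82 in YAP KO livers. Before rounding, the YAP KO ratios lay below those of WT without overlap, but the nearest livers both round to 2.12. The mean ratio was 2.46 against 1.75 (exact two-sided permutation p = 0.1, the smallest that 3 livers against 3 allow). In the mixed set it was 1.96 in WT and 2.17 in YAP KO TAZ HET livers (exact permutation p = 0.4). Between the WT groups the ratio was 1.88 to 2.03 in mixed against 2.12 to 2.73 in C57BL/6 livers (exact permutation p = 0.1).

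Among the alpha-tubulins, Tuba8 is an isotype with a divergent sequence that is known from testis, muscle and brain. It was the scarcest in WT livers of the alpha-tubulins described here. Its TPM was 0.756, 1.5 and 1.85 in WT (C57BL/6) and 0.887, 1.19 and 1.7 in WT (mixed) livers. It stood at 9.89, 23 and 23.3 TPM in YAP KO livers and at 16.4, 22.7 and 18.7 in YAP KO TAZ HET livers. Even the lowest liver of a model was far above the highest WT liver, and the log2 fold change was 2.72 (SE 0.36, limma adjusted p = 0.000821) in YAP KO and 2.92 (SE 0.2, limma adjusted p = 2.77e-05) in YAP KO TAZ HET livers. Only 0.871% of the tested genes had a higher log2 fold change than Tuba8 in YAP KO livers and 0.613% in YAP KO TAZ HET livers.

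Tuba1a is the alpha-tubulin best known from developing neurons and is low in adult liver. It was at 4.49, 6.35 and 4.52 TPM in WT (C57BL/6) livers and at 22.8, 17.8 and 12.3 in YAP KO livers. WT (mixed) livers held 7.27, 5.7 and 7.25 TPM and those of their mutant littermates 14.1, 14.4 and 17.2. No liver of a model reached down to its littermates. The log2 fold change was 1.26 (SE 0.2, limma adjusted p = 0.00194) in YAP KO and 0.78 (SE 0.14, limma adjusted p = 0.00362) in YAP KO TAZ HET livers.

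Tuba1b and Tuba1c are the broadly expressed alpha-tubulins and were the most abundant of the 4 in every group. Tuba1b was at 52.8, 67.7 and 74.5 TPM in WT (C57BL/6) livers, at 143, 144 and 106 in YAP KO livers, at 71, 55 and 83.1 in WT (mixed) livers and at 101, 137 and 138 in YAP KO TAZ HET livers. The rise passed the test in YAP KO livers (0.64, SE 0.16, limma adjusted p = 0.0143), although not without YAP KO replicate LM189 (0.53, limma adjusted p = 0.0503), and did not pass in YAP KO TAZ HET livers (0.52, SE 0.2, limma adjusted p = 0.0722). In the latter it passed without scaling (0.84), with quantile normalization (0.74), and with WT (mixed) replicate LM230 (0.69) or YAP KO TAZ HET replicate LM225 (0.7) left out. Tuba1c was at 55.2, 140 and 121 TPM in WT (C57BL/6) livers and at 111, 206 and 158 in YAP KO livers, groups that overlap, and at 125, 93.5 and 131 against 116, 140 and 142 TPM in the mixed set. Its log2 fold change was 0.28 (SE 0.36, limma adjusted p = 0.581) in YAP KO and -0.12 (SE 0.17, limma adjusted p = 0.587) in YAP KO TAZ HET livers. The first turned to -0.1 without WT (C57BL/6) replicate LM75, the liver with the lowest Tuba1c, and the second to 0.2 without scaling, so no direction is given for Tuba1c.

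Within the alpha-tubulins the minor isotypes gained share. Tuba8 held 0.759 ± 0.135% of the summed TPM of the 4 genes in WT (C57BL/6) livers and 5.7 ± 2.17% in YAP KO livers, and 0.653 ± 0.189% and 6.6 ± 0.652% in the mixed set. Tuba1a held 3.05 ± 0.873% and 5.54 ± 2.1%, and 3.5 ± 0.216% and 5.25 ± 0.586%, also without overlap. The share of Tuba1c was 58.7% to 61.2% in WT (mixed) against 44.6% to 46.8% in YAP KO TAZ HET livers, but overlapped in the other set (48.7% to 65% and 38.7% to 52.7%). A share within a family does not depend on the scaling between libraries. It does depend on how reads are divided, which is uncertain among Tuba1a, Tuba1b and Tuba1c. In TPM as deposited, the sum of the 4 genes was 177 ± 55.8 in WT (C57BL/6) and 326 ± 56.8 in YAP KO livers. It was 194 ± 34.8 in WT (mixed) and 292 ± 39.2 in YAP KO TAZ HET livers.

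Among the beta-tubulins, Tubb2a encodes an isotype that is abundant in brain. It was at 28.9, 18.1 and 43.1 TPM in WT (C57BL/6) livers and at 226, 538 and 230 in YAP KO livers. WT (mixed) livers held 35.4, 30 and 28.5 TPM, against 121, 306 and 280 in YAP KO TAZ HET livers. The lowest liver of either model was above every WT liver, but the livers of the models differed widely among themselves, with replicate LM189 highest in YAP KO and replicate LM225 lowest in YAP KO TAZ HET. The log2 fold change was 3.02 (SE 0.42, limma adjusted p = 0.00105) in YAP KO, or 8.12 times the WT level, and 2.45 (SE 0.34, limma adjusted p = 0.000966) in YAP KO TAZ HET livers, or 5.47 times. A higher log2 fold change was found in 0.632% and 0.928% of the tested genes.

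Tubb6 encodes a minor, divergent beta-tubulin. It was at 8.18, 7.9 and 8.57 TPM in WT (C57BL/6) and at 33.1, 28.5 and 20.8 TPM in YAP KO livers. The WT (mixed) livers held 11.4, 7.24 and 8.26 TPM and the YAP KO TAZ HET livers 26.8, 24.7 and 29.6. The rise was of like size in both models, with no overlap of a model with its littermates: the log2 fold change was 1.27 (SE 0.15, limma adjusted p = 0.000503) in YAP KO and 1.21 (SE 0.15, limma adjusted p = 0.000552) in YAP KO TAZ HET livers.

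Tubb4b is the broadly expressed beta-tubulin and the most abundant of the 4 in WT livers. It was at 74.6, 108 and 131 TPM in WT (C57BL/6) livers, 171, 194 and 170 in YAP KO livers, 107, 88.5 and 123 in WT (mixed) livers and 140, 178 and 157 in YAP KO TAZ HET livers. The TPM values did not overlap in either set, but after scaling they did, and the log2 fold change of 0.44 (SE 0.19, limma adjusted p = 0.111) in YAP KO and of 0.26 (SE 0.16, limma adjusted p = 0.241) in YAP KO TAZ HET livers did not pass. Without WT (C57BL/6) replicate LM193 the first was 0.62 (limma adjusted p = 0.0351), and without scaling the changes were 0.8 and 0.58 and passed. Tubb2b, the close copy of Tubb2a, was listed at 0 in all 3 WT (C57BL/6) livers but had 0.874, 0.885 and 0.244 TPM in YAP KO livers, and 0.325, 0.107 and 0.333 against 0.0604, 0.328 and 1.4 TPM in the mixed set. These values were too low for the test as run. With no filter on low values, its log2 fold change was 0.64 (limma adjusted p = 0.0206) in YAP KO and 0.2 (limma adjusted p = 0.644) in YAP KO TAZ HET livers. Tubb2b shares 408 stretches of 150 bases with the far more abundant Tubb2a, so the division of reads between them is uncertain. Whether shared reads account for the Tubb2b values was not tested.

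Tubb2a took over the largest share of the 4 beta-tubulins in 5 of the 6 livers of the models, the exception being YAP KO TAZ HET replicate LM225, whereas Tubb4b led in 6 of 6 WT livers. Tubb2a held 21 ± 6.6% of the summed TPM of the 4 genes in WT (C57BL/6) livers (13.5% to 25.9%) and 59.2 ± 9.98% in YAP KO livers (52.4% to 70.7%). In the mixed set it held 21.6 ± 3.26% (17.8% to 23.8%) in WT and 54 ± 10.5% (41.9% to 60.1%) in YAP KO TAZ HET livers. Tubb4b went the other way, from 73.1 ± 7.02% to 35.2 ± 8.42%, and from 72.2 ± 4.05% to 39.1 ± 8.42%, although its TPM was not lower. The share of Tubb6 overlapped between the groups in both sets (means of 5.45% to 6.83% over the 4 groups).

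With every beta-tubulin gene of the tables in the sum, Tubb2a held 16.4% and 50.4% in WT (C57BL/6) and YAP KO livers and 17.1% and 44.1% in WT (mixed) and YAP KO TAZ HET livers. Tubb5, a further broadly expressed beta-tubulin, held 21.3 ± 2.92% and 15.3 ± 5.29%, and 20.1 ± 2.01% and 18.2 ± 2.28%. Of the whole alpha-tubulin sum Tuba4a, an isotype of adult tissues that was singled out after its values were seen, held 28.4 ± 2.09% in WT (C57BL/6) and 15.3 ± 1.62% in YAP KO livers and 25.2 ± 1.37% and 17.1 ± 0.167% in the mixed set, without overlap. The summed TPM of the 4 beta-tubulins described here was 0.623 to 0.987 times that of the 4 alpha-tubulins in WT (C57BL/6) livers and 1.41 to 1.95 times in YAP KO livers, and 0.717 to 0.81 and 1.17 to 1.62 times in the mixed set. Beta-tubulin mRNA thus exceeded alpha-tubulin mRNA among these genes in all 6 livers of the models and in 0 of the 6 WT livers.

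**Figure D2:**
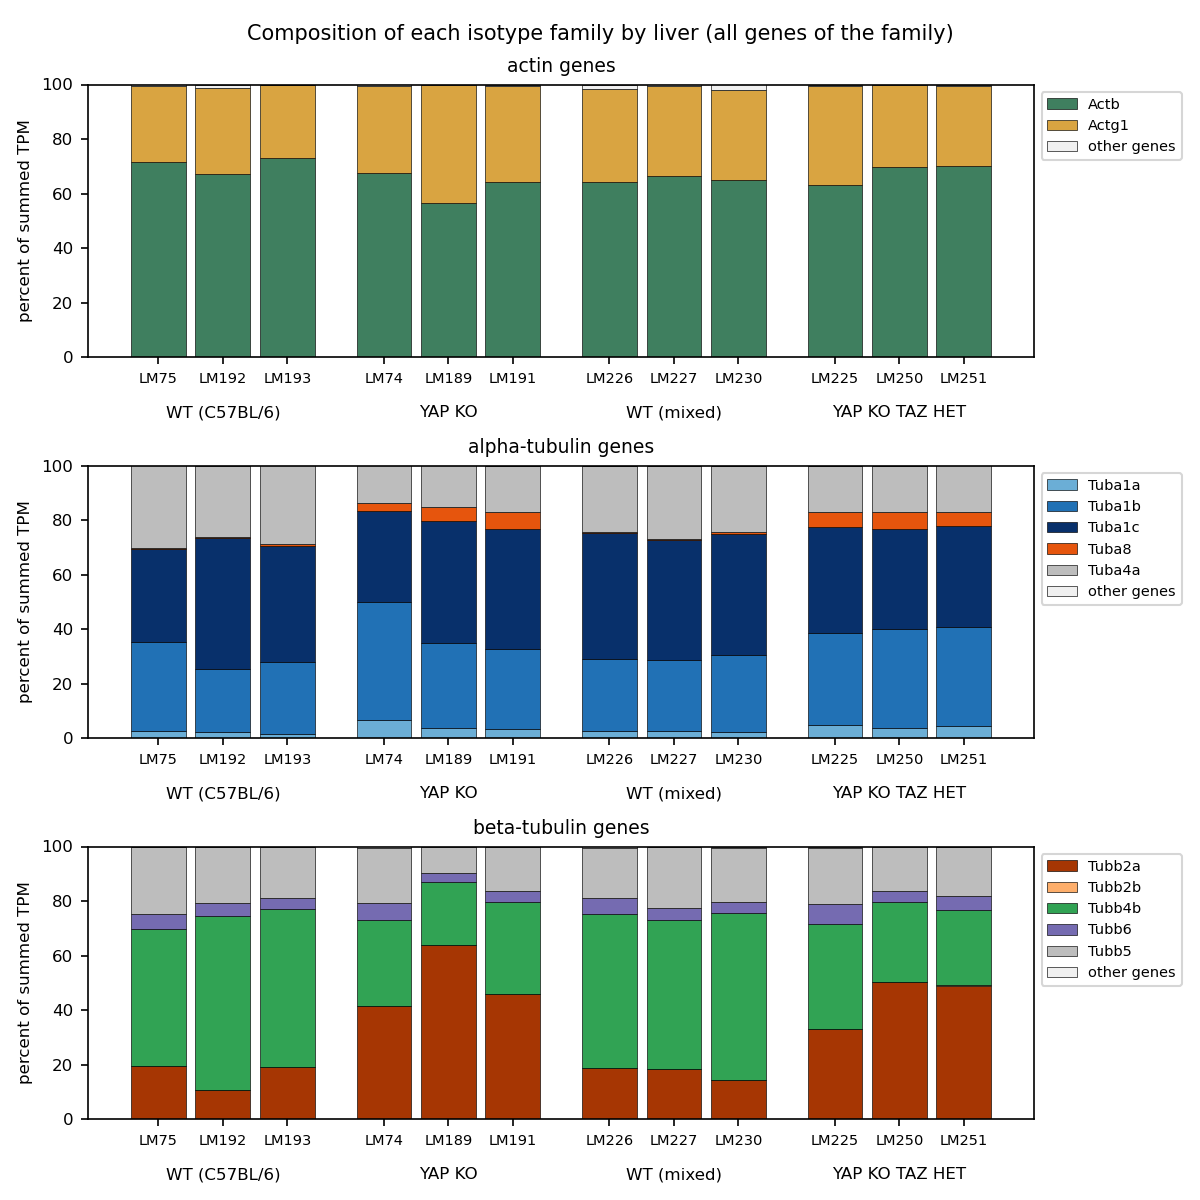
Stacked bars of the percent of summed TPM held by each isotype in each liver, with a panel each for actin, alpha-tubulin and beta-tubulin and the sum taken over every gene of the family in the tables. Tubb2a is the largest part of beta-tubulin in 5 of 6 livers of the models (all but replicate LM225) and Tubb4b in 6 of 6 WT livers.

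The order of the isotypes by mean TPM shifted with these changes. In both WT groups Actb came first and was followed by Actg1, Tuba1c and Tubb4b, neighbours whose ranges overlapped, then Tuba1b, Tubb2a, Tubb6, Tuba1a, Tuba8 and Tubb2b. Tubb6 and Tuba1a overlapped in WT (mixed) livers and not in WT (C57BL/6) livers. By mean TPM Tubb2a was in the third place and Tuba8 in the eighth in both models, against the sixth and the ninth in WT livers. The third place was clear of Tubb4b in YAP KO livers, whereas in YAP KO TAZ HET livers the ranges of Tubb2a and Tubb4b overlapped (121 to 306 against 140 to 178 TPM). The ranges of Actg1 and Tubb2a overlapped in both models, as did those of Tubb4b, Tuba1c and Tuba1b as neighbours and those of Tuba8 and Tuba1a, while Actb and Actg1 overlapped in YAP KO and not in YAP KO TAZ HET livers.

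**Figure D3:**
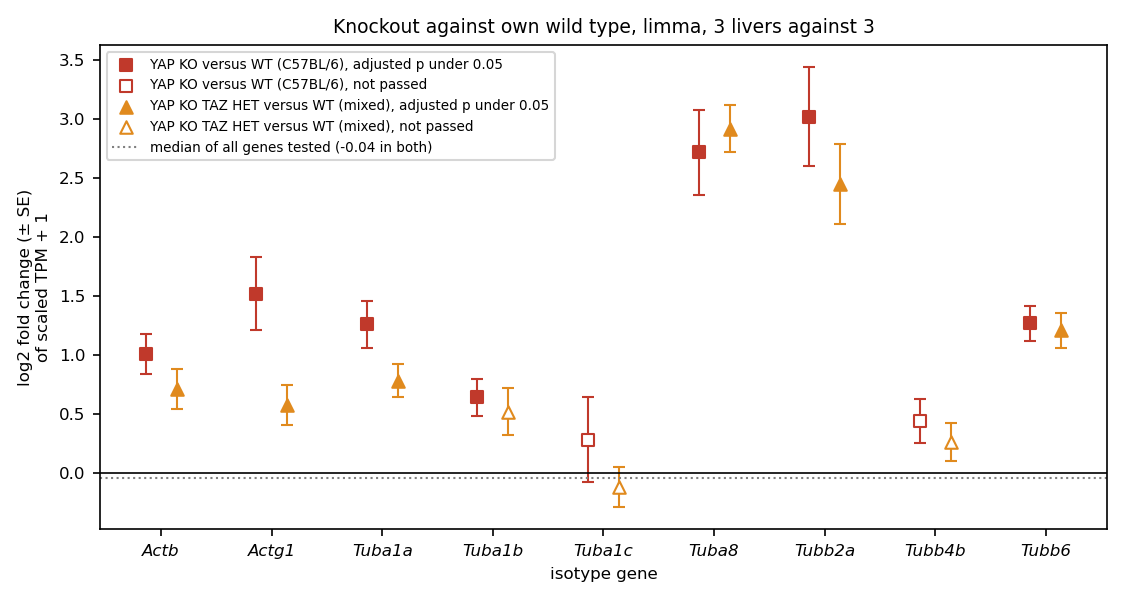
Log2 fold change ± SE from limma for the 9 tested isotypes in YAP KO against WT (C57BL/6) and YAP KO TAZ HET against WT (mixed) livers (3 against 3 each), where filled points passed an adjusted p under 0.05 and the dotted line is the median of all tested genes at -0.04. Tubb2a and Tuba8 lie above 2 in both comparisons and Tuba1c lies near 0.

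Whether the models differed from each other was tested as a contrast of their changes over all 12 livers, and 0 of the 9 isotypes passed, where 8 of 12159 genes (0.0658%) did. At an unadjusted p under 0.05 there was 1, Actg1, whose change was larger in YAP KO livers by 0.94 (SE 0.39, limma adjusted p = 0.999), where 4.58% of all genes had such a p. The other differences ran from -0.19 (SE 0.45) for Tuba8 to 0.57 (SE 0.61) for Tubb2a on the log2 scale, and a missed threshold does not show that the models changed alike. The livers of the WT groups also enter that contrast, so a comparison of the WT groups is not independent of it. Between the WT groups 0 of 9 isotypes passed as well (0.216% of 11126 genes passed), and 0 had an unadjusted p under 0.05 (5.82%). The log2 differences of mixed against C57BL/6 ran from -0.09 for Actb to 0.29 for Tuba1a (SE 0.15, limma adjusted p = 0.89).

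Within groups some isotypes varied together. Over the deviations of the 12 livers from their 4 group means, which leave 8 free values and share each liver's depth and scaling, Pearson's r was 0.835 between Actb and Actg1, 0.84 between Tuba1b and Tubb4b and 0.839 between Tuba1c and Tubb4b, and it was lowest between Tuba8 and Tubb6 at -0.418. Among the 11530 genes tested in both comparisons, those nearest to a member by this measure were Atg4a (r = 0.963) and Ciao2a (0.938) for Actb and Plekhg1 (0.954) and Skil (0.942) for Actg1. For the alpha-tubulins they were Sema6a (0.936) and Serpinh1 (0.916) for Tuba1a, Impdh1 (0.967) and Pitpna (0.955) for Tuba1b, Hdhd3 (0.957) and Lman1 (0.942) for Tuba1c, and Kat8 (0.979) and Fkbp2 (0.973) for Tuba8. For the beta-tubulins they were Zbtb10 (0.95) and Paics (0.93) for Tubb2a, Pdf (0.962) and Arcn1 (0.952) for Tubb4b, and Rac2 (0.951) and Entpd1 (0.948) for Tubb6. These values describe the 12 livers, and the highest of so many correlations is large by selection alone.

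Most genes of the actin crosslinkers passed as higher in both models. Of 28 tested genes of crosslinkers and myosin, 19 were higher and 1 lower in YAP KO livers (median log2 fold change 0.64), and 17 higher and 4 lower in YAP KO TAZ HET livers (0.52). Tagln2, an actin-binding protein of the calponin family, rose by 2.4 (SE 0.12, limma adjusted p = 6.33e-06) and 2.3 (SE 0.17, limma adjusted p = 3.96e-05) on the log2 scale. Myh10 (non-muscle myosin heavy chain) rose by 1.86 and 1.44, Tpm1 (tropomyosin, which lines the filament) by 1.58 and 1.69 and Vcl (vinculin, which ties filaments to adhesions) by 1.4 and 1.02, with limma adjusted p of at most 0.000722. The genes that fell were Rdx in both models, by 0.3 and 0.5, and Myl9, Pls3 and Tpm2 in YAP KO TAZ HET livers, by 0.71, 0.43 and 0.94.

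Of the 29 genes of filament nucleation and turnover, 14 and 16 were higher in the models and 0 were lower in either (medians of 0.4 and 0.35). Capg, which caps filament ends in macrophages and other cells, rose by 1.75 and 1.95, and Arpc1b, a subunit of the branching complex Arp2/3, by 1.38 and 1.56. Tmsb10 and Tmsb4x, the thymosins that bind free actin monomers, rose by 1.16 and 1.13, and by 0.9 and 1.18. The MRTF genes rose in both models, Mrtfb by 1.01 (SE 0.2, limma adjusted p = 0.00523) and 0.96 (SE 0.18, limma adjusted p = 0.0045) and Mrtfa by 0.82 (SE 0.14, limma adjusted p = 0.00258) and 0.64 (SE 0.14, limma adjusted p = 0.00896). Srf itself was at 7.46 to 10 TPM in WT (C57BL/6) and 12.7 to 15.6 in YAP KO livers and did not pass after scaling (0.24, SE 0.17, limma adjusted p = 0.295, and 0.04, SE 0.16, limma adjusted p = 0.874).

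Genes that act on tubulin gave a mixed picture. Of 19 tested microtubule-associated genes, 10 were higher and 0 lower in YAP KO (median 0.38) and 7 higher and 1 lower in YAP KO TAZ HET livers (0.21). Stmn1, which binds free tubulin dimers, rose by 1.27 and 0.97, Map1s by 0.88 and 0.7 and Dynll1, a dynein light chain, by 0.76 and 1.33. Mid1, a ubiquitin ligase that sits on microtubules, rose by 1.3 in YAP KO livers and was at 0.26 (SE 0.47, limma adjusted p = 0.695) in YAP KO TAZ HET livers. The 20 genes that fold actin and tubulin did not share a direction, with 2 higher and 3 lower in YAP KO (median -0.07) and 3 higher and 3 lower in YAP KO TAZ HET livers (-0.11). Tcp1, a subunit of the chaperonin that folds both, fell by 0.72 (SE 0.1, limma adjusted p = 0.00127) and 0.56 (SE 0.097, limma adjusted p = 0.00268), and Pfdn2, a subunit of prefoldin, which hands them over, fell by 0.54 and 0.61. Pfdn6, another subunit of prefoldin, fell by 0.5 (limma adjusted p = 0.00918) in YAP KO livers and was at -0.19 (limma adjusted p = 0.198) in YAP KO TAZ HET livers. Tbcd, a cofactor of dimer assembly, rose by 0.52 and 0.42.

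Of the 12 tested genes of tubulin modification and autoregulation, 0 were higher and 2 lower in YAP KO livers (Atat1, which acetylates alpha-tubulin, by 0.54, and Sirt2, which removes the mark, by 0.34), and 1 was higher and 1 lower in YAP KO TAZ HET livers (Agbl5 at 0.38 and Ttll5 at -0.61). Ttc5, which recognizes nascent tubulin to start the decay of its mRNA, was at 0.11 (SE 0.17, limma adjusted p = 0.657) and 0.38 (SE 0.16, limma adjusted p = 0.0922). Of the other actin and tubulin genes, 8 were tested and Tubb5 alone rose in both models, by 0.87 (SE 0.12, limma adjusted p = 0.00121) and 0.97 (SE 0.16, limma adjusted p = 0.00242), while Tubd1 fell by 0.57 in YAP KO TAZ HET livers. Tuba4a, at 49.2 to 82.1 TPM in WT (C57BL/6) and 45.4 to 71.2 in YAP KO livers, had log2 fold changes of -0.57 (SE 0.24, limma adjusted p = 0.101) and -0.43 (SE 0.16, limma adjusted p = 0.0696). In the difference between the models, 0 genes of these lists passed.

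**Figure D4:**
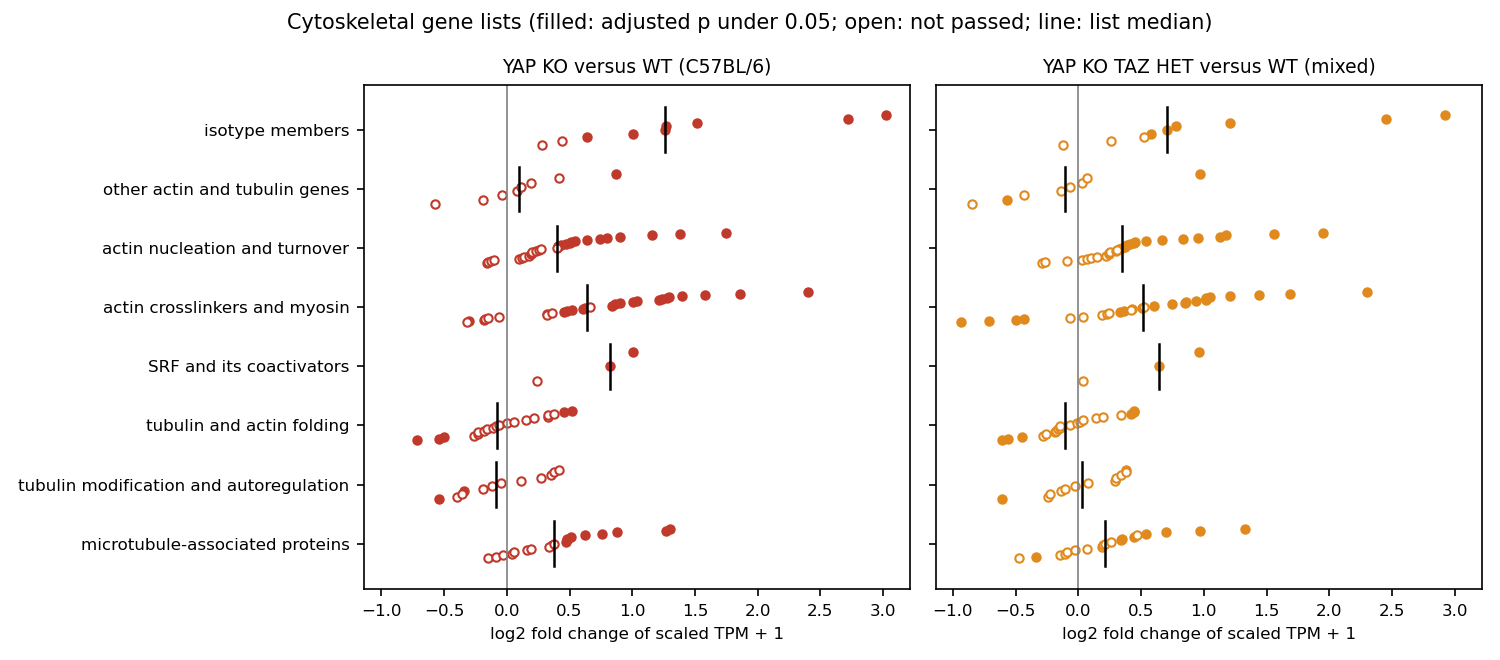
Log2 fold changes of single genes (points) in the isotypes and in 7 lists of cytoskeletal genes, for YAP KO (left) and YAP KO TAZ HET (right) against their WT littermates, with filled points where the adjusted p was under 0.05 and a line at the median of each list. Crosslinkers and myosin lie mostly above 0, with medians of 0.64 and 0.52, and folding genes lie on both sides of it, with medians of -0.07 and -0.11.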

How the data were processed

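RNA of 12 mouse livers (4 groups of 3) was sequenced (150 bases from both fragment ends). With CLC Genomics Workbench the authors mapped them to GRCm38.p6, assigned them to genes and deposited TPM per liver, which sum to 1000000 in every library and keep no depth. The deposited edgeR comparisons (fold changes, p-values) were not used. No pair of libraries was identical (0 duplicates). Groups were taken from the labels.

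TPM were scaled by an unweighted trimmed mean of log ratios (30% trimmed at each end of the ratios, 5% at each end of the mean levels), filtered (1 TPM or more in 3 libraries or more), transformed to log2(scaled TPM + 1) and fitted with limma 3.58.1 (R 4.3.3, eBayes with trend, Benjamini-Hochberg, threshold 0.05, two-sided), each model with its own littermates and the difference between the models over 12 livers. The fit was tested on simulated data. Ratios were compared by exact permutation tests (scipy 1.17.1). Shares were described without a test. Of the identifiers, 99.84% were found in GENCODE M21, and the 10 isotypes had the same coordinates there.

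Alternatives were quantile normalization, no scaling, a pseudocount of 0.1, a filter at 5 TPM, no filter, robust eBayes, all 12 livers in 1 fit, an adjusted p under 0.01 and each liver left out in turn. The isotypes and the lists were chosen with earlier results of these data known. All isotypes were named, and of each cytoskeletal list up to 4 genes past the threshold with the largest absolute change in YAP KO livers. Acta2, Srf, Ttc5, Tuba4a, Tubd1, Rdx, Myl9, Pls3, Tpm2, Agbl5, Ttll5, Krt19 and Ly6g were named outside this rule, after their values were seen.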

Additional observations from a re-analysis of the deposited data

How the results depend on the processing

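With an adjusted p under 0.01 as the threshold 6 and 4 isotypes passed. The number of isotypes that passed was 6 to 8 over the alternatives in YAP KO livers (7 as reported) and 4 to 8 in YAP KO TAZ HET livers (6 as reported), and 0 for the difference between the models and between the WT groups. The adjusted p of Actb, Actg1, Tuba1a, Tuba8, Tubb2a and Tubb6 was under 0.05 in all 14 alternatives in YAP KO livers. In YAP KO TAZ HET livers that of Tuba1a, Tuba8, Tubb2a and Tubb6 was under it in all 14, that of Actb in 13 and that of Actg1 in 8. The threshold of 0.01 is counted among the 14 and leaves the fit as reported, so there the reported adjusted p is repeated. Tubb2a ranged from 2.57 to 3.38 and from 2.19 to 2.91, and Tuba8 from 2.5 to 3.31 and from 2.78 to 3.56. The changes of sign were all in values that did not pass the test, and the cause was not tested. Tuba1c in YAP KO TAZ HET livers became 0.2 without scaling and 0.14 with quantile normalization, and Tubb4b between the WT groups 0.04 without scaling. With 1 liver left out in turn, Tuba1c ranged over -0.1 to 0.57 in YAP KO livers and over -0.26 to 0.01 in the other model. For the difference between the models the ranges were -0.07 to 0.26 for Tuba1b, -0.03 to 0.35 for Tubb4b, -0.08 to 0.21 for Tubb6 and -0.41 to 0.24 for Tuba8. Between the WT groups they were -0.23 to 0.07 for Actb, -0.13 to 0.17 for Tuba1b, -0.22 to 0.4 for Tuba1c, -0.28 to 0.07 for Tuba8, -0.26 to 0.37 for Tubb2a, -0.22 to 0.16 for Tubb4b and -0.09 to 0.14 for Tubb6. Without scaling, 84% in place of 51.1% of the genes that passed in YAP KO livers were higher, and 82.2% in place of 50.2% in YAP KO TAZ HET livers. No paired analysis was possible because the labels give no replicate number shared between groups. TPM keep no depth, so the spread between 3 livers was the only error available, and 3 against 3 livers cannot reach an exact permutation p below 0.1.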
